A study of Tetradesmus deserticola with 10 samples.

Results

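The last step of drying in a desert green alga was examined by setting Dry cells against cells late in drying. The alga, Tetradesmus deserticola of strain Sni-2 (Acutodesmus deserticola in the study's own naming), was grown as a laboratory culture for 6 weeks. RNA was sequenced from 2 Dry and 2 Late libraries, which were 4 of the 10 libraries of a drying and rewetting course and were chosen by their stage label. Drops of 40 µL were dried on cover glass. Dry spots were fully flattened, had stayed in the chamber for a further 11 h and were collected about 24 h after the start. Late drops had lost 60% of their volume and were collected at 7.5 h, 16.5 h before the Dry spots. The other libraries, also 2 a stage, were Hydrated (taken at once), Early (2.5 h, 25% volume loss) and Rehydrated (1 h after water was added back). All stages share the 1 strain, and no drops were kept wet for the same hours, so drying and elapsed time cannot be told apart. Nothing in the labels tells whether both libraries of a stage are separate cultures, so the spread behind each p-value may be technical.

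As background, green algae of desert crusts lose nearly all cell water and resume photosynthesis within a short time of rewetting. Plants and algae that survive drying are known for protective proteins such as late embryogenesis abundant proteins and chaperones, for compatible sugars and for mechanisms that dissipate light energy in the drying photosynthetic apparatus. A cell without free water makes little or no RNA, so RNA found in dry cells can have been made before water was lost or have outlasted other RNA. The files pair no assembled gene with a gene name, so none of these functions could be looked up, the labelled organism could not be checked with marker genes, and genes are given by assembly identifier alone, without position or annotation. The letters of their sequences are not used here.

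The Dry libraries held 1453220 and 1594106 counts over all genes, and the Late libraries 1162221 and 1880952. Of 20783 assembled genes, 9856 had enough counts for a test. Across genes, Pearson's r of log2 CPM (CPM being a count relative to the scaled library total) was 0.922 between the Dry libraries and 0.927 between the Late libraries, against 0.653 to 0.701 between a Dry and a Late library. Genes are not independent replicates, and these values are a description. The scaling by TMM, which assumes that most genes of a library pair do not change, gave factors of 0.471 and 0.403 for the Dry libraries and 1.09 and 0.759 for the Late libraries. Bulk RNA cannot tell fewer cells from less RNA per cell, and no count here measures RNA per cell.

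The final step changed more than 1 in 3 of the genes tested. In Dry vs Late, 3626 of 9856 genes (36.8%) differed at an adjusted p under 0.05 in edgeR's quasi-likelihood test, 1694 higher in Dry (17.2%) and 1932 lower (19.6%). The changes were large. Among the 1633 higher genes with counts in both stages, 577 had risen at least 8-fold, and among the 1707 such lower genes 578 had fallen at least 8-fold. The median log2 fold change was 2.56 over the higher genes and -2.71 over the lower ones, or 2.47 and -2.36 with genes at 0 in one stage set to the bound that 3 counts per library allow. The same median over all genes tested was -0.29. In all 1932 lower genes and in 1675 of the 1694 higher genes the Dry and Late libraries did not overlap. Genes that pass the test are chosen in part for such a separation, and its share over all genes tested was not counted. These 2 counts are therefore a description.

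Which genes counted as higher or lower depended on how the libraries were scaled. With library totals instead of TMM, 828 genes were higher (8.4%) and 3585 lower (36.4%), and the median log2 fold change of all genes was -1.32. With the stages scaled so that the median gene did not change, an alternative chosen after the data were seen, 2224 were higher and 1318 lower. Library totals, median-of-ratios factors (RLE) and upper quartile factors called none of the TMM genes in the other direction, but with library totals the fold change of 24 of the 1694 higher genes was below 0. Under all 4 scalings, 828 genes (8.4%) were higher and 1815 (18.4%) lower. Without Dry replicate 1, 1251 genes were lower.

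**Figure D1:**
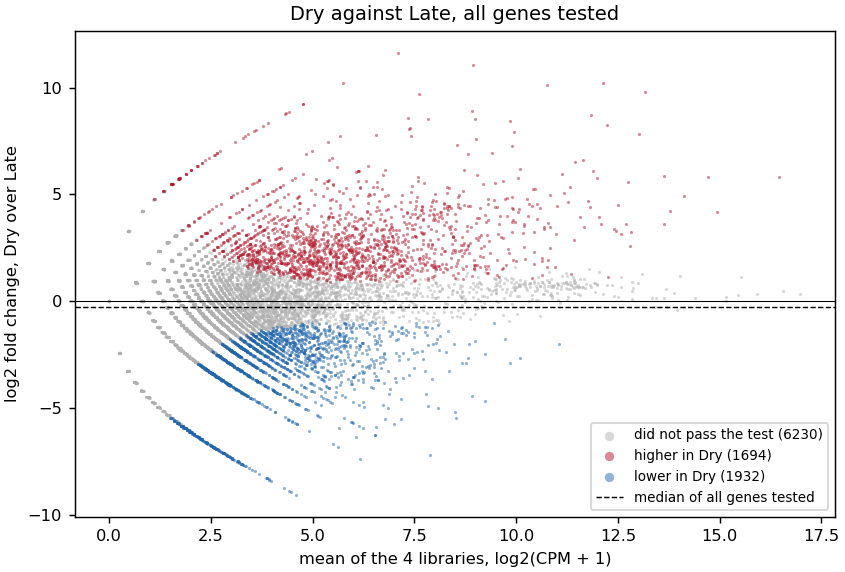
Log2 fold change of Dry over Late against the mean level in the 4 libraries, log2(CPM + 1), for the 9856 genes tested, with 1694 higher genes in red, 1932 lower genes in blue and the others in grey. The dashed line is the median of all genes, -0.29, and grey genes of high level lie mostly above it; the curved edges are genes with few or no counts in one stage.

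Genes were also set out by their level earlier in the course, as the mean of the 4 Hydrated and Early libraries. These are not part of the Dry vs Late contrast, although they are part of its fit. This grouping was chosen after the data were seen. Of the 3285 genes with the highest earlier level, 680 (20.7%) were higher in Dry and 1172 (35.7%) lower. Of the middle 3285 genes, 497 (15.1%) were higher and 633 (19.3%) lower. Of the 3286 genes with the lowest level, at most 5.90 CPM, 517 (15.7%) were higher and 127 (3.86%) lower; a gene this low had little room to fall and could enter the test through its counts in Dry. Counting only genes called under all 4 scalings gave 347 higher and 1118 lower genes at the highest level, 224 and 584 at the middle level and 257 and 113 at the lowest. Among 121 genes of at least 1000 CPM by the same mean, 10 were higher, 6 lower and 105 did not pass the test with TMM, and 6 were higher, 22 lower and 93 did not pass with library totals. The median log2 fold change of these 121 genes was 0.65 with TMM and -0.38 with library totals, against -0.29 and -1.32 for all genes.

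The share of a library's counts held by a fixed set of genes does not depend on the scaling, although the choice of the set does. The higher genes held 45.9% and 43.6% of all counts in the Dry libraries, against 8.71% and 7.06% in the Late libraries. The genes that did not pass the test held 52.5% and 54.9% in Dry, against 79.2% and 84.8% in Late. The 828 genes higher under all 4 scalings held 40.9% and 38.8% in Dry, against 4.98% and 3.99% in Late. In the libraries outside the Dry vs Late contrast the 1694 higher genes held 10.1% and 11.4% in Hydrated, 10.1% and 6.82% in Early, and 35.7% and 36.0% in Rehydrated. The lower genes held 0.897% and 0.748% in Dry, against 10.9% and 7.25% in Late. Their shares in the other stages were 14.9% and 13.4% in Hydrated, 14.9% and 10.7% in Early, and 4.47% and 3.52% in Rehydrated. Since the genes were chosen by Dry vs Late, the Dry and Late shares are a description. The Hydrated, Early and Rehydrated libraries entered that choice only through the filter, scaling and spread of the shared fit.

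**Figure D2:**
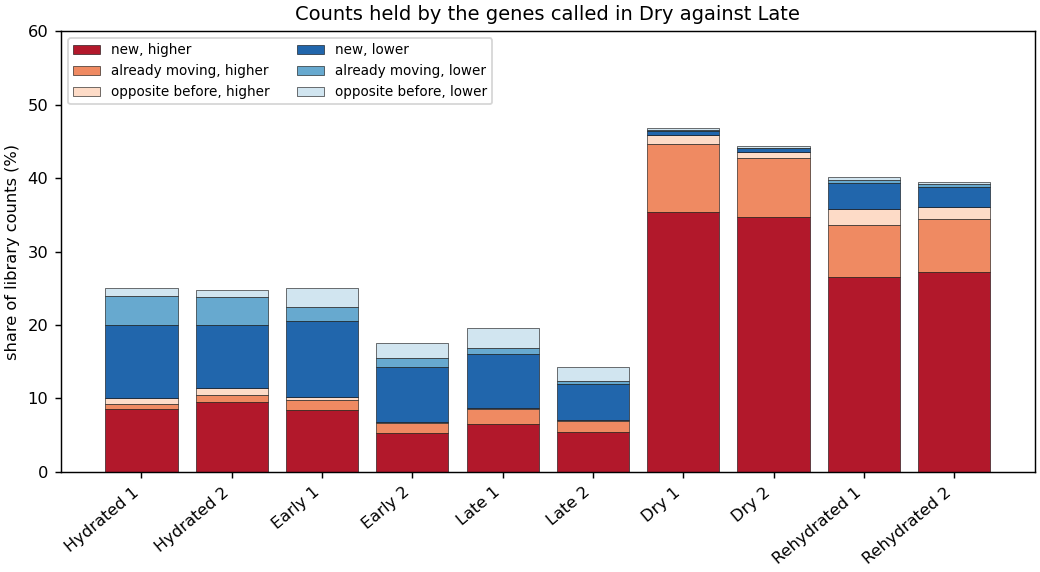
Share of each library's counts (%) held by the genes called in Dry vs Late, stacked by class, for the 10 libraries in stage order. Red shades are genes higher in Dry and blue shades genes lower in Dry; the red part is 45.9% and 43.6% in the Dry libraries against 8.71% and 7.06% in the Late libraries.

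Genes new to this step were then separated from those already moving. A gene was counted as new when it passed the test neither in Early vs Hydrated (5.06% of genes called) nor in Late vs Hydrated (11.3%), as continuing when it had been called in the direction it took in Dry, and as turning when it had been called in the other direction. Of the 3626 genes, 3038 (83.8%) were new, 253 continued, 334 turned, and 1 had been called both ways. Most of the 9856 genes tested also passed neither earlier comparison, in which 499 and 1118 genes were called. Among the 6230 genes not called in Dry vs Late, 83 were higher and 159 lower in Early vs Hydrated. In Late vs Hydrated 198 of the 6230 were higher and 400 lower, and 178 were called in both comparisons. A large share of new genes therefore does not by itself set the genes of this step apart. Late vs Hydrated uses the same Late libraries as Dry vs Late, with the opposite sign. An error in a gene's Late level therefore adds to the turning genes and takes from the continuing ones. Counting only movement in Early vs Hydrated, whose contrast shares no library with that of Dry vs Late, left 3369 new genes, 60 continuing and 197 turning.

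**Figure D3:**
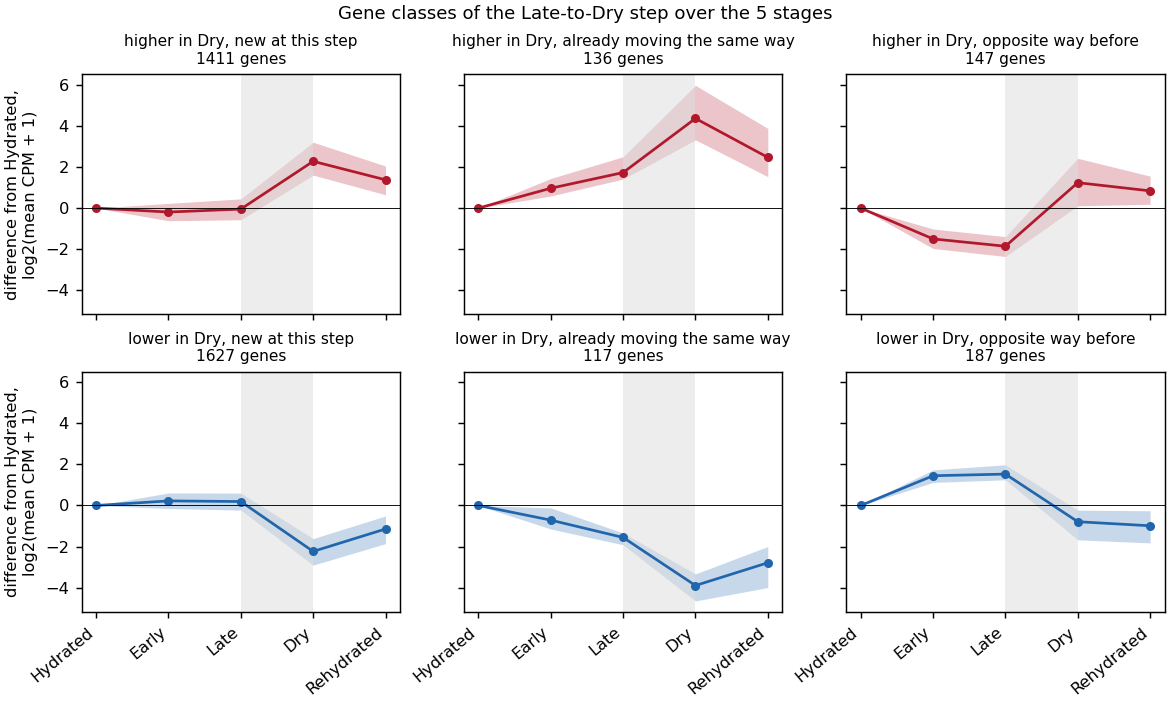
Difference from Hydrated in log2(mean CPM + 1) at each of the 5 stages for the 6 classes of genes; points are medians over the genes of a class, bands run from the lower to the upper quartile, and the grey strip marks the step from Late to Dry. The 1411 new higher and 1627 new lower genes were chosen for passing no earlier test, and their medians stay near 0 up to Late; the medians of the continuing and turning classes leave 0 at Early.

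The new higher genes were 1411, or 83.3% of all higher genes. Their median log2 fold change was 2.50 in Dry vs Late, 2.42 with genes at 0 set to their bound, against -0.06 in Late vs Hydrated and -0.21 in Early vs Hydrated. Ranked by the deposited length-corrected signal, a measure free of the library scaling, the median new higher gene stood at percentile 85.8 of the genes tested in Dry and 55.1 in Late. It had stood at 54.4 in Hydrated and 51.8 in Early, and it stood at 82.6 in Rehydrated. Together the class held 35.4% and 34.7% of counts in Dry, against 6.59% and 5.43% in Late. A few transcripts made up much of it, since its 10 most abundant genes held 51.0% and 54.6% of the class in the 2 Dry libraries. The most abundant gene of the class alone took 6.94% and 8.17% of a Dry library, against at most 0.38% and 0.277% for any gene of the class in the Late libraries.

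TRINITY_DN171044_c0_g1 had the largest rise among the new genes that met the naming rule. It had 9350 and 8600 CPM in the Dry libraries, from 6359 and 5488 counts, against 5.60 and 9.18 CPM in the Late libraries, from 7 and 13 counts. The gene rose by 10.22 on the log2 scale (SE 0.681, adjusted p = 2.16e-09, edgeR). Every Dry library lay far above every Late library, and in rank the gene stood at percentile 99.5 in Dry and 38.8 in Late. It had 1.07 and 2.79 CPM in Hydrated, 1.53 and 3.75 in Early, and 1430 and 1500 in Rehydrated. Its level in Late was above both Hydrated libraries, but the difference did not pass the test (log2 fold change 1.95, SE 0.661, adjusted p = 0.059), so it was new by a narrow margin. The final step exceeded the change from Hydrated to Late by 8.27 on the log2 scale (SE 1.16, adjusted p = 3.23e-05).

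The new lower genes were 1627, or 84.2% of all lower genes. Their median log2 fold change was -2.76 in Dry vs Late, -2.36 with genes at 0 set to their bound, against 0.20 in Late vs Hydrated and 0.23 in Early vs Hydrated. The median gene of the class stood at percentile 30.9 in Dry and 69.6 in Late, after 67.4 in Hydrated and 70.4 in Early. The class held 0.574% and 0.472% of counts in Dry, against 7.35% and 4.84% in Late. With library totals it had 3084 genes and the new higher class 589, and with the median gene set to no change 1073 and 1868. Without Dry replicate 1 it had 1016.

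TRINITY_DN178756_c5_g2 had the largest fall among the new genes that met the rule. It had 11.8 and 20.4 CPM in Dry, from 8 and 13 counts, against 568 and 471 CPM in Late, from 710 and 667 counts. It fell by 5.01 on the log2 scale (SE 0.501, adjusted p = 1.06e-07, edgeR). The 2 Dry libraries were the lowest of the drying course and did not overlap with those of the other drying stages. The gene had 447 and 329 CPM in Hydrated, 634 and 580 in Early, and 17.6 and 11.0 in Rehydrated. In Late vs Hydrated its log2 fold change was 0.42 (SE 0.393, adjusted p = 0.539). The step differed from the change before it by -5.44 (SE 0.699, adjusted p = 1.76e-05).

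A gene that passes one test and fails another has not been shown to differ between them, so the step itself was tested against the change before it, as (Dry minus Late) minus (Late minus Hydrated). Over all genes 894 steps (9.07%) were higher than the change before and 1232 (12.5%) lower. Among the new genes, 660 of 1411 higher genes (46.8%) and 913 of 1627 lower genes (56.1%) passed this test in the direction of their call. They were chosen by Dry vs Late, which is part of this difference, so these counts are a description. The other new genes were not shown to have changed their course at this step. By size, 908 of the 1411 and 1331 of the 1627 had less than a 2-fold difference in both earlier comparisons. The 95% interval of Late vs Hydrated lay within 2-fold for only 134 and 262 of them, at a median half-width of 0.99 and 0.87 on the log2 scale. Without Late replicate 1 the step test gave 401 genes above and 674 below, and without Late replicate 2, 517 and 797. With library totals the numbers were 568 (5.76%) and 1089 (11%).

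Continuing genes were a small part of the step. The class takes a call in Early or in Late. Its share is therefore not comparable with the share of all genes called in either comparison alone. Of the higher genes 136 (8.03%) had already risen, 32 of them in Early and 133 in Late against Hydrated (2.33% and 4.98% of all genes). Their median log2 fold change was 2.49 in Dry vs Late, 1.84 in Late vs Hydrated and 1.03 in Early vs Hydrated. The class held 9.34% and 8.01% of counts in Dry, against 1.93% and 1.48% in Late, and its median gene reached percentile 94.1 in Dry, against 85.6 in Late. Of the lower genes 117 (6.06%) had already fallen, 27 in Early and 112 in Late (2.73% and 6.36% of all genes), with a median log2 fold change of -2.41 in Dry vs Late and -1.59 in Late vs Hydrated. In the test of the step against the earlier change, 18 of the 136 (13.2%) stepped above it and 3 below it. Of the 117, 12 (10.3%) stepped below it. Over all genes 9.07% stepped above and 12.5% below. Both classes were chosen by comparisons that are part of this difference, so these shares are a description. The sizes of the classes are sensitive to single libraries. The continuing higher genes numbered 69 and 60 without Late replicate 1 or 2, 60 and 79 without Hydrated replicate 1 or 2, and 205 without Rehydrated replicate 2. The continuing lower genes numbered 49 without Late replicate 1, 49 without Late replicate 2 and 57 without Hydrated replicate 1. With library totals they numbered 35 and 452.

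TRINITY_DN185719_c11_g11 had the largest rise among continuing genes that met the rule. It had 17700 and 15200 CPM in Dry, against 82.5 and 61.5 CPM in Late, and it took 0.827% and 0.607% of the Dry counts, against 0.00886% and 0.00463% of the Late counts. The log2 fold change was 7.83 (SE 0.647, adjusted p = 1.61e-08, edgeR). The gene had 27.6 and 12.6 CPM in Hydrated, 35.6 and 50.9 in Early, and 1810 and 3270 in Rehydrated, so that libraries of neighbouring stages did not overlap. Its earlier rise, 1.83 in Late vs Hydrated (SE 0.517, adjusted p = 0.0233), was smaller than the final one by 6.01 on the log2 scale (SE 0.993, adjusted p = 0.000171).

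TRINITY_DN179407_c0_g1 had the largest fall among continuing genes that met the rule. It had 30.9 and 9.41 CPM in Dry, from 21 and 6 counts, against 408 and 427 CPM in Late, from 510 and 605 counts. It fell by 4.36 on the log2 scale (SE 0.554, adjusted p = 1.98e-06, edgeR), and fell by 5.51 without Dry replicate 1. It had 1750 and 1830 CPM in Hydrated, 291 and 379 in Early, and 34.4 and 72.9 in Rehydrated. This was a fall in 2 parts: the Early libraries lay far below the Hydrated ones, the Late libraries lay just above the Early ones, and the Dry libraries lay below all of them. In the first part, Early vs Hydrated, it fell by 2.42 on the log2 scale (SE 0.475, adjusted p = 0.00487). The final step differed from the change before it by -2.26 (SE 0.80, adjusted p = 0.0471), a call that was lost in 7 of the 10 fits that left out a library, at adjusted p of up to 0.162.

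**Figure D4:**
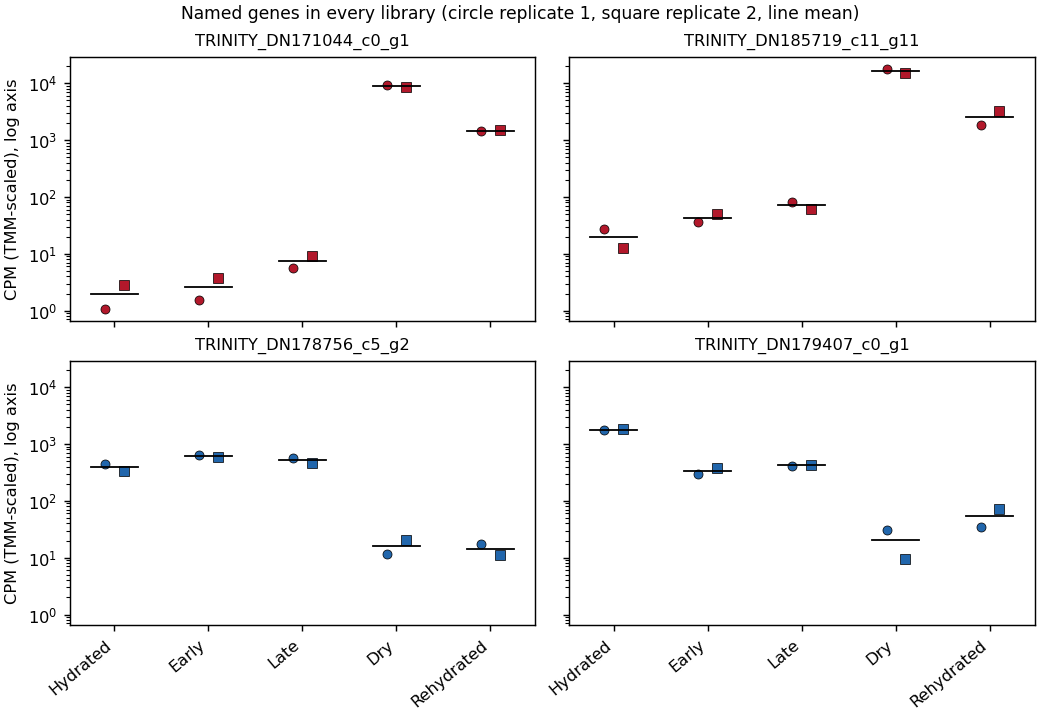
CPM (TMM-scaled, log axis) of the 4 named genes in each of the 10 libraries; circles are replicate 1, squares replicate 2, lines the stage means. In both upper panels the Dry libraries lie above all others, and in both lower panels the Dry and Rehydrated libraries lie below all others.

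Turning genes had been called in one direction during drying and in the other at the final step. An error in a gene's Late level adds to this class, as said above. Of the higher genes 147 (8.68%) had been lower before, 82 of them in Early and 115 in Late, with 50 in both. Of all genes 2.73% were lower in Early and 6.36% in Late. The class takes a call in either comparison, so 8.68% is not comparable with either share alone. The median log2 fold change of the class was 3.23 in Dry vs Late and -2.02 in Late vs Hydrated, or 2.95 and -1.86 with genes at 0 set to their bound. In Dry, 56 of them were within 2-fold of Hydrated, 83 were at least 2-fold above it and 8 were still at least 2-fold below it. Of the lower genes 187 (9.68%) had been higher before, 115 of them in Early and 159 in Late, with 87 in both. Of all genes 2.33% were higher in Early and 4.98% in Late, and the same limit holds. The medians of this class were -2.58 and 1.64. In Dry, 94 of these were within 2-fold of Hydrated, 85 at least 2-fold below it and 8 still at least 2-fold above it. With library totals the turning higher genes numbered 204 and the turning lower genes 49. Without Hydrated replicate 2 the turning higher and lower genes numbered 62 each, and without Late replicate 1, 94 and 116. Without Late replicate 2 the turning higher genes numbered 95, and without Hydrated replicate 1 the turning lower genes 87.

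Genes that moved in the first hours can be followed from a contrast without the Late libraries, although the fit includes them. Early vs Hydrated called 230 higher genes (2.33%), and of these 115 were lower in Dry than in Late and 32 (13.9%) higher. Their median log2 fold change was 1.70 in Early vs Hydrated, 1.84 in Late vs Hydrated and -1.25 in Dry vs Late. Of the 269 genes lower in Early (2.73%), 82 (30.5%) were higher in Dry than in Late and 28 (10.4%) lower, with medians of -2.16, -2.30 and 0.31. Over all genes 17.2% were higher and 19.6% lower. With library totals in Dry vs Late, 22 of the 230 early-raised genes (9.57%) were higher in Dry and 151 (65.7%) lower. Of the 269 early-lowered genes 60 were higher and 60 lower (22.3% each), against 8.4% and 36.4% of all genes. Among the early-lowered genes, higher ones then no longer outnumbered lower ones, but their share was above that of all genes under both scalings. These counts were not tested against other genes.

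The counts of early movers rest on few libraries. Early-raised genes lower in Dry were 43 of 70 without Hydrated replicate 1, 13 of 43 without Hydrated replicate 2, 29 of 92 without Early replicate 1 and 34 of 57 without Early replicate 2. For the early-lowered genes that were higher in Dry, the same fits gave 47 of 151, 23 of 75, 22 of 75 and 12 of 59. With library totals, 18 of the 34 genes then higher in Early (0.345%) were lower in Dry, and 97 of the 374 then lower in Early (3.79%) were higher, and the median log2 fold change in Dry vs Late of the 230 and 269 genes was -2.32 and -0.54, against -1.32 for all genes.

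**Figure D5:**
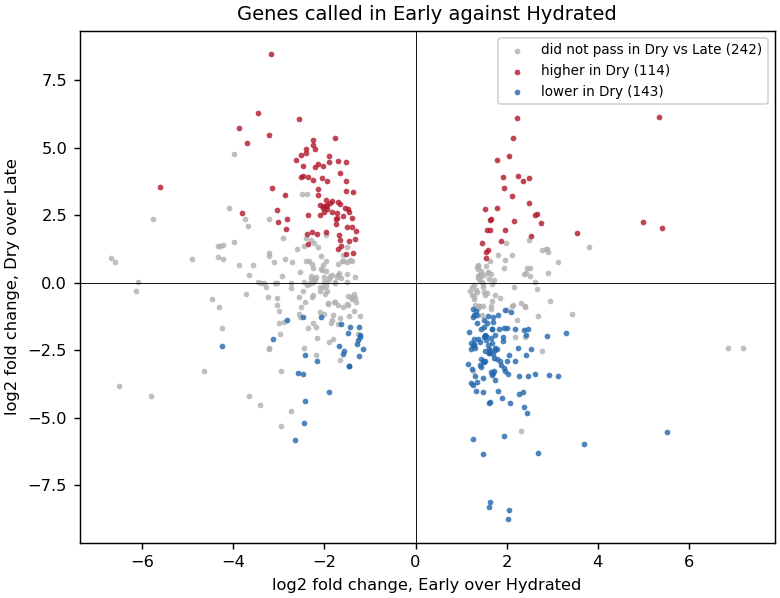
Log2 fold change of Dry over Late against that of Early over Hydrated for the 499 genes called in Early vs Hydrated; the 2 axes share no library. Of the genes on the right, raised in Early, 115 were lower in Dry (blue) and 32 higher (red); on the left 82 were higher and 28 lower.

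Some genes called in Dry vs Late had 0 counts in both libraries of 1 of these stages. The share of all genes tested with such counts is not given, so the numbers below are a description. Of the higher genes 61 had 0 counts in both Late libraries and between 3 and 356 counts, with a median of 7, in the 2 Dry libraries together. Only 4 of them had 0 counts in all 6 Hydrated, Early and Late libraries, with at most 53 counts in Dry. Of the lower genes 225 had 0 counts in both Dry libraries and between 10 and 123 counts, with a median of 20, in the 2 Late libraries together. A count of 0 allows up to 3 counts, or 4.41 and 4.70 CPM in the Dry libraries and 2.40 and 2.12 CPM in the Late libraries, for counting error only. A gene with 3 counts in the 2 Dry libraries together is not clearly above that allowance. Of the 225 genes, 211 had at least 1 count in the 2 Rehydrated libraries together. Over all 20783 genes, 19459 and 17290 had counts in the Rehydrated libraries, against 13975 and 14789 in the Dry libraries, so the 211 are a description.

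Many genes of the final step also differed from Hydrated in the libraries taken 1 h after rewetting. The contrast Rehydrated vs Hydrated shares no library with that of Dry vs Late, but both come from 1 fit with the same estimate of each gene's spread. Of the 1694 genes higher in Dry, 974 (57.5%) were higher in Rehydrated than in Hydrated and 24 (1.42%) lower, against 15.9% and 17.7% of all genes. Of the 1932 genes lower in Dry, 958 (49.6%) were lower in Rehydrated and 19 (0.983%) higher. By class, 797 of 1411 new higher genes (56.5%), 120 of 136 continuing higher genes (88.2%) and 57 of 147 turning higher genes (38.8%) were higher in Rehydrated. Of the lower genes, 775 of 1627 new (47.6%), 108 of 117 continuing (92.3%) and 75 of 187 turning genes (40.1%) were lower. All 3 classes were themselves chosen with the Hydrated libraries, so the counts by class share those libraries with Rehydrated vs Hydrated. With library totals in Rehydrated vs Hydrated, 839 of the 1694 genes were higher (12% of all genes) and 717 of the 1932 lower (12.8%). Without Hydrated replicate 1, 627 of the 1668 genes then higher in Dry were higher in Rehydrated.

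The levels of the named genes 1 h after rewetting were set against Dry. Both rising genes were lower in Rehydrated than in Dry, with a log2 fold change for TRINITY_DN171044_c0_g1 equal to -2.62 (SE 0.473, adjusted p = 0.000364) and for TRINITY_DN185719_c11_g11 to -2.69 (SE 0.509, adjusted p = 0.000557). They remained 9.55 and 6.97 above Hydrated on the log2 scale. TRINITY_DN178756_c5_g2 and TRINITY_DN179407_c0_g1 showed log2 fold changes of -0.15 (SE 0.519, adjusted p = 0.857) and 1.39 (SE 0.535, adjusted p = 0.0684) against Dry, neither of which passed the test. These values hold for TMM only. By share of library counts, TRINITY_DN171044_c0_g1 fell less, from 0.438% and 0.344% in Dry to 0.264% and 0.182% in Rehydrated. TRINITY_DN185719_c11_g11 fell from 0.827% and 0.607% to 0.334% and 0.396%. By the same measure, both falling genes were higher in Rehydrated than in Dry, though from few counts. Over all genes Rehydrated vs Dry called 20.7%, and it shares the Dry libraries with Dry vs Late.

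Genes that did not pass the test were mostly not shown to be steady. Of 6230 such genes, 184 had a 95% interval within 2-fold, and 892 had a fitted difference of at least 4-fold. The median gene had 5.75 counts per library where the test was not passed and 21.2 where it was. Transcript length separated the classes little. Relative to the median length in each library, the median was 0.949 for new higher genes, 1.12 for turning higher genes and 1.22 for continuing lower genes, against 0.975 for all genes tested. Counts were not whole in at least 1 library, which means reads divided among assembled genes, for 21.7% of new higher genes, 27.9% of continuing higher genes and 13.7% of new lower genes, against 15.0% of all genes tested.

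The 3626 genes carried 3511 different identifiers up to the assembler's cluster number, which groups sequences that overlap in the assembly. In 97 clusters 2 or more genes were called, and all called genes went the same way in 92 of these, 67 higher and 25 lower. Such genes can be pieces or close copies of 1 gene and are not independent.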

How the data were processed

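Both tables used came from RNA-seq of cultured cells with 2 libraries in each of 5 stages. Ribosomal RNA had been depleted with commercial oligos and 105 custom oligos, per the labels' protocols. Expected counts per assembled gene, deposited without normalization by the authors, were the base of all tests. The second deposited table holds TMM-normalized expression signal. The submitters' processing notes name RSEM 1.2.28, Bowtie2 2.2, Trimmomatic 0.35, CASAVA 1.4 and DESeq2. The sources used here do not give what each did, how the transcripts were assembled or how plant genes were selected. RSEM divides a read that matches several genes, so between 2.59% and 4.58% of a library's values were not whole within 0.005. Library columns were matched to sample titles by number and time code.

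Expected counts were rounded. edgeR's filterByExpr at a minimum count of 10 left 9856 genes with 98.3% of all counts, scaled by TMM. The test was the quasi-likelihood F-test of edgeR (version 4.0.16 in R 4.3.3) in 1 fit over all 10 libraries, a term per stage, 5 residual degrees of freedom and Benjamini-Hochberg adjustment over all genes in each comparison. SE is the fold change divided by the root of F, and intervals come from the SE. The fit was tried on simulated data with the same spread for every gene and few changed genes, in random directions. That setting differs from this step, so it does not bear on calls that depend on the scaling. Libraries within a stage varied by 28.6% (coefficient of variation, from the common dispersion). An exact permutation test of 2 against 2 cannot go below p = 0.333, so single values were not tested. CPM is relative to the TMM-scaled total of the genes tested, in libraries of 644705 to 1917825 counts. Relative length was the count divided by the deposited signal, which was also used for ranks and, with limma 3.58.1 on log2 of signal plus 0.1 or 1, as an alternative. DESeq2 1.42.0 was another. Libraries of a stage differed by more than sampling noise, with a chi-square per degree of freedom of 10.0 to 33.4.

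Named genes were, for new and continuing genes and each direction, the 1 with the largest change among those called under 4 scalings, with at least a 2-fold change, a mean of 50 counts over the 4 libraries, no overlap, whole counts in all libraries and 10 counts in the lower stage. The classes, lists and rule were chosen with earlier results of these data known. Lists of drying-related or marker genes could not be matched to identifiers.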

Additional observations from a re-analysis of the deposited data

Results flagged for a closer look

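The final step of drying was set against the change that preceded it, a difference between 2 phases of the same course. The Late-to-Dry step lay above the Hydrated-to-Late change in 894 genes and below it in 1232 at an adjusted p under 0.05 (edgeR's quasi-likelihood test). The 4 named genes passed the same test: the difference between the steps, on the log2 scale, was 8.27 for TRINITY_DN171044_c0_g1, 6.01 for TRINITY_DN185719_c11_g11, -5.44 for TRINITY_DN178756_c5_g2 and -2.26 for TRINITY_DN179407_c0_g1. They were chosen by their change in Dry vs Late, which is part of this difference, so their values here and above are a description. TRINITY_DN179407_c0_g1 passed narrowly (adjusted p = 0.0471), and its difference lay between -3.39 and -1.70 when a library was left out. The final step covered 16.5 h and the earlier change 7.5 h, and the groups of 2 libraries are too small for a search for single outlying libraries.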

How the results depend on the processing

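The 4 named genes kept their direction and their calls in Dry vs Late under all 20 alternatives each, at an adjusted p of at most 0.000457. Their log2 fold changes lay between 9.20 and 10.62, 6.74 and 7.97, -6.12 and -4.71, and -5.51 and -3.82, in the order TRINITY_DN171044_c0_g1, TRINITY_DN185719_c11_g11, TRINITY_DN178756_c5_g2 and TRINITY_DN179407_c0_g1. With library totals they were 9.20, 6.74, -6.12 and -5.39. A call under library totals, RLE and upper quartile scaling was part of the naming rule, so the calls under these scalings could not fail. The other alternatives reuse the same libraries. The median log2 fold change of the 269 early-lowered genes turned, from 0.31 with TMM to -0.54 with library totals. That of all genes moved from -0.29 to -1.32, so the early-lowered genes stayed above it. The balance of calls turned too, with more lower than higher genes in the edgeR fit with TMM but 1526 higher and 1266 lower with DESeq2, and 2224 and 1318 with the median gene set to no change.

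Counts that moved by more than 1.5 times are given by setting, in the order new, continuing, turning. With library totals Dry vs Late gave 828 higher and 3585 lower genes, classes of 589 and 35 higher and of 3084, 452 and 49 lower genes, 568 steps above the earlier change, 18 early-raised genes lower in Dry, and 560 genes higher in both Dry vs Late and Rehydrated vs Hydrated. A minimum count of 30 gave 905 new higher and 195 continuing lower genes. DESeq2 gave 74 continuing lower, 103 turning lower, 66 early-raised genes lower in Dry and 611 genes lower in both Dry and Rehydrated. With limma on signal plus 0.1 the continuing and turning genes were 42 and 49 higher and 32 and 26 lower, and 417 genes were higher in both. Few genes were then called in Early: 0 of 2 early-raised genes were lower in Dry (66 of 166 by DESeq2), and 3 of 4 early-lowered genes were higher. With signal plus 1 there were 55 and 59 higher, 2697, 68 and 58 lower, and 587 higher in both. In that fit 4 of 9 early-raised genes were lower in Dry and 5 of 18 early-lowered genes higher. At an adjusted p of 0.01, 1161 genes were lower. Counting only Early vs Hydrated gave 32 continuing and 82 turning higher, and 28 and 115 lower genes; counting also 2-fold differences in Late vs Hydrated gave 257 and 380 higher and 328 turning lower genes. With the median gene set to no change there were 1073 new lower genes. The cause was not tested.

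Leaving out each of the 10 libraries in turn gave 1281 to 1773 higher and 1251 to 2077 lower genes. The classes held 1067 to 1519, 60 to 205 and 62 to 194 higher genes, and 1016 to 1711, 49 to 166 and 62 to 262 lower genes. The step test gave 401 to 1016 above and 674 to 1390 below. Early-raised genes lower in Dry numbered 13 to 170, early-lowered genes higher in Dry 12 to 118, and genes changed the same way in Dry and Rehydrated 627 to 960 higher and 671 to 918 lower.

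Replicate numbers are shared between stages, but nothing in the labels says that they mark a shared culture or day. Same-numbered Dry and Late libraries deviated together at r = 0.149 across genes, and the other 9 pairs of stages lay between -0.0815 and 0.135. With the replicate number as a block, 1763 genes were higher and 2007 lower in Dry, and every class stayed within 1.5 times its count.

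Depth limits weakly expressed genes: the median gene that did not pass the test had 5.75 counts per library, and 0 counts in Dry allow up to 4.70 CPM.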
